A study of Mus musculus with 8 samples.

Results

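Transcripts of Myc and of 31 genes of ribosome biogenesis and Myc-dependent metabolism were followed in single mouse bone marrow cells, 32 genes of the 19879 gene names measured. The genes were chosen by name, and all 32 were found in the files. The mice were wild type or of the genotype Mof -/+, heterozygous for Mof (Kat8), a lysine acetyltransferase that acts on histone H4. Each genotype gave 2 libraries of sorted haematopoietic stem cells (HSC) and 2 libraries titled plate2, and the series' design names 7 further progenitor gates, from megakaryocyte-erythroid to granulocyte-monocyte progenitors, without saying which well held which. The labels give no age, strain or sex of the mice, no allele of Mof beyond the genotype, and no mouse for any library, so p-values measure the spread between libraries, which may be technical.

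Myc is a transcription factor that pairs with Max on E-box DNA and drives genes of growth, among them many that make ribosomes. Ribosomes are built in the nucleolus: RNA polymerase I copies the ribosomal DNA, guided enzymes modify the transcript, and assembly factors fold and trim it into the 40S and 60S subunits. In blood formation, most stem cells are quiet and make little protein, while committed progenitors divide quickly.

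The CACGTG E-box was searched in the 300 bases around each gene start (250 before, 50 after; RefSeq, build GRCm38.p6; the motif reads the same on both strands). Windows were found for 25 of the 32 genes; those of Bop1, Rrp12, Srm, Myc, Fbl, Npm1 and Rrs1 were not among them. The motif was in 7 of the 25 (28%): Nop2, Ltv1, Utp20, Pes1, Mybbp1a, Tsr1 and Wdr43. Of all 27025 genes with a window, 8.09% held it. In 6 of the 7 genes the motif began after the annotated gene start, at base 3 to base 41 of the gene, and in Nop2 it began 60 bases before it. Among all windows with the motif, the first match lay after the start in 13.2%. The stretches around it are shown for 5 genes whose levels are described further on, 5′ to 3′ on the strand of the gene, with the motif in capitals. Those of Utp20 and Mybbp1a end where the 300 bases end.
Utp20, chr10:88826765-88826789, minus strand: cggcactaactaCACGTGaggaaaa
Mybbp1a, chr11:72441355-72441376, plus strand: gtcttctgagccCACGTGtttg
Wdr43, chr17:71616220-71616249, plus strand: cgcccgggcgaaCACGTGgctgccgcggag
Pes1, chr11:3963965-3963994, plus strand: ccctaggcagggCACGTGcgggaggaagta
Tsr1, chr11:74898092-74898121, plus strand: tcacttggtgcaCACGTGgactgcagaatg
A match is a run of letters, and no binding was measured.

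Each library used 96 of its barcodes, and wells with at least 1000 transcripts on those were kept, 417 in all, 231 of them HSC wells. Plate set and depth could not be told apart: the median well held 1567 to 2979 transcripts in the HSC libraries and 9018 to 12531 in the plate2 libraries. Kept libraries summed to 99312 to 244299 transcripts (HSC) and 419917 to 721312 (plate2). The stem cell list (Procr, Mecom, Hlf, Mllt3, Ly6a, Slamf1, Meis1) stood at 2.20 to 2.53 transcripts per 1000 in HSC libraries, 6 or 7 of its 7 genes detected, and at 0.582 to 0.712 in plate2 libraries. Kat8 itself gave 1 or 2 transcripts in each HSC library and 4 to 12 in each plate2 library, too few to be tested or to check the genotype. Mature neutrophil genes reached 4.61 transcripts per 1000 in wild type HSC library 1, were at 0 in library 2, and haemoglobin genes reached 10.2 in library 1. Their part in the results on HSC wells was tested only by leaving out library 1 or the wells rich in neutrophil transcripts.

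CEL-Seq2 tags the 3′ end of a molecule, so counts of different genes do not scale with their length. Of the 32 genes, Npm1 (nucleophosmin, a nucleolar chaperone) and Ncl (nucleolin, which binds ribosomal DNA and its transcript) were the most abundant, with a mean over the 8 libraries of 1655 and 1612 CPM (counts-per-million of all transcripts of the library). They made up 22.2% and 21.6% of the sum of the 32. Nop56 and Nop58, core proteins of the box C/D particles that guide methylation of ribosomal RNA, followed at 483 and 413 CPM. Nolc1, a chaperone of such particles, stood at 293, the pseudouridine synthase Dkc1 at 270, the nucleolar helicase Ddx21 at 264 and the nucleolar GTPase Gnl3 (nucleostemin) at 264 CPM. The lowest were Utp20 (35), Heatr1 (20.3) and Rrp12 (14.4 CPM, 53 transcripts in all), and Rrp12 did not pass the filter on low counts, so 31 genes were tested.

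The summed level of the 32 genes at equal depth, the mean over wells of their transcripts per 1000 of a well, was close in the HSC libraries of both genotypes and higher in plate2. Its values were 4.93 and 5.24 for wild type HSC, 5.48 and 4.92 for Mof -/+ HSC, 6.78 and 5.97 for wild type plate2, and 7.32 and 8.85 for Mof -/+ plate2. Each plate2 library was above each HSC library, and each Mof -/+ plate2 library was above both wild type ones. With all barcodes counted this last order was lost: the wild type plate2 libraries stood at 7.86 and 6.72 and the Mof -/+ ones at 7.59 and 8.85. No test was made of this sum. With at least 2000 transcripts per well, which left 13 and 14 wild type HSC wells, the wild type HSC mean was 6.31 and the wild type plate2 mean 6.01, so the order of these groups depended on that minimum.

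**Figure D1:**
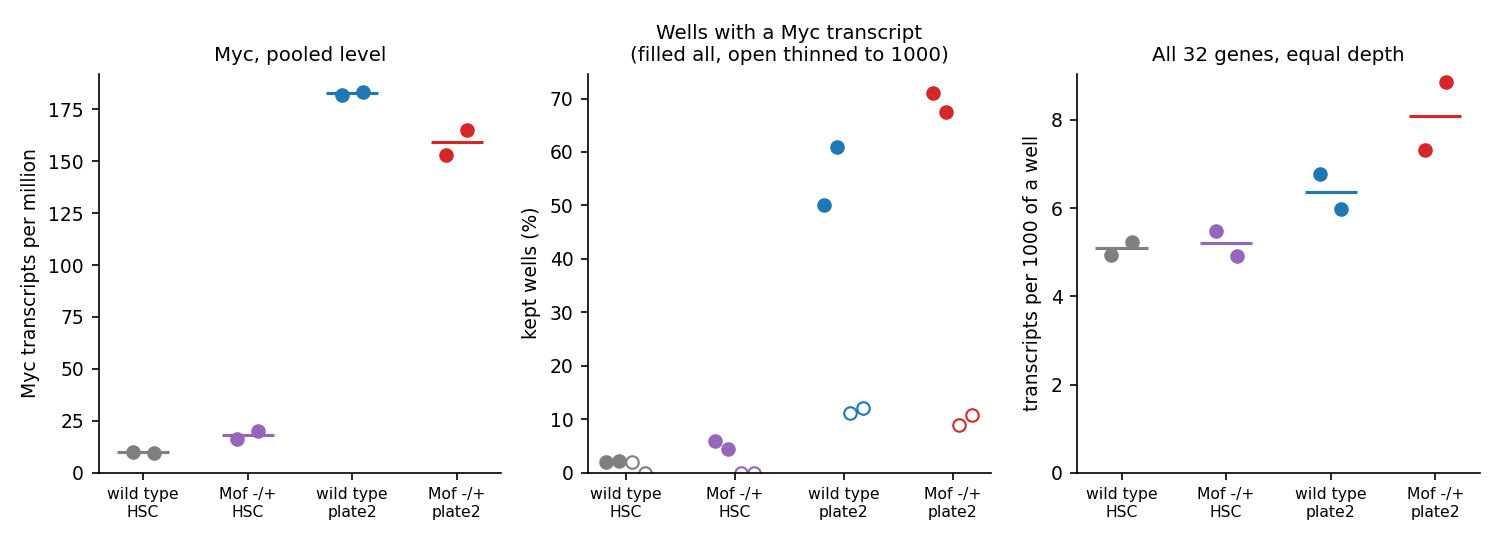
Myc CPM of each library, the percent of kept wells with a Myc transcript (filled, all transcripts; open, wells thinned to 1000), and the sum of the 32 genes per 1000 transcripts of a well, for the 2 libraries of each group. Lines in the left and right panels are group means. Myc is at 9.70 to 20 CPM in the 4 HSC libraries and at 153.1 to 183.5 in the 4 plate2 libraries.

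Myc had the largest difference between the plate sets of the 31 genes tested. The Myc gene (ENSMUSG00000022346.15, chromosome 15, 61985391 to 61990374, plus strand, GENCODE vM21 on GRCm38) gave 1 transcript in each wild type HSC library and 4 in each Mof -/+ HSC library, against 208 in the plate2 pair of either genotype. In CPM, wild type HSC stood at 10.1 and 9.70, Mof -/+ HSC at 16.4 and 20, wild type plate2 at 181.8 and 183.5, and Mof -/+ plate2 at 153.1 and 165.2. The plate sets did not overlap. In wild type cells the fitted difference between plate2 and HSC was 4.42 ± 0.60 on the log2 scale (SE; edgeR adjusted p = 4.88e-05). With 2 transcripts in wild type HSC, the ratio of counts was 18.4 with an exact counting interval of 5.04 to 153.3. In Mof -/+ cells the difference was 3.32 ± 0.42 (edgeR adjusted p = 3.49e-05), and the ratio of counts was 8.85 (4.41 to 20.8). Both calls held with any 1 of the 8 libraries left out (edgeR adjusted p up to 0.00141 and 0.00121).

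Wells with at least 1 Myc transcript were 2 of 96 in wild type HSC (2.08%, exact interval 0.253 to 7.32), 7 in Mof -/+ HSC (5.19% of 68 and 67 wells, 2.11 to 10.4), 52 of 95 in wild type plate2 (54.7%, 44.2 to 64.98) and 63 of 91 in Mof -/+ plate2 (69.2%, 58.7 to 78.5). These shares rise with depth. After thinning each well to 1000 transcripts they were 1 of 96 in wild type HSC (1.04%, 0.0264 to 5.67), 0 in Mof -/+ HSC (3 counts of the total would be 2.22%, and the exact upper limit was 2.70%), 11 of 95 in wild type plate2 (11.6%, 5.92 to 19.8) and 9 of 91 in Mof -/+ plate2 (9.89%, 4.62 to 17.9). By library, the thinned shares were 2% and 0% in wild type HSC and 0% in both Mof -/+ HSC libraries. They were 11.1% and 12.2% in wild type plate2 and 8.89% and 10.9% in Mof -/+ plate2, each above every HSC library. These shares were not tested between sets or genotypes. A thinned level near that of 1 transcript gives no size of the change. Intervals cover counting error only and pool the wells of 2 libraries, so they do not measure the spread between libraries.

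In wild type cells, 6 of the 31 genes tested were higher in plate2 than in HSC libraries and 0 were lower (edgeR quasi-likelihood test, Benjamini-Hochberg adjusted p under 0.05). Over all 6678 genes tested, 9.39% were higher and 7.95% lower. The median log2 difference of the 31 genes was 0.52, against 0.08 over all genes, and 21 of 31 were positive. Beside Myc, the 6 were the chaperone Npm1, the helicase Ddx21, Gar1 of the pseudouridylating box H/ACA particle, Rrs1 of 60S assembly and Utp20 of the small subunit processome.

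Npm1 stood at 978 and 1049 CPM in wild type HSC and at 1960 and 1644 in wild type plate2, a log2 difference of 1.09 ± 0.26 (SE; edgeR adjusted p = 0.00701). Ddx21 (chromosome 10, 62580251 to 62602281) stood at 151.1 and 214 against 304 and 291 CPM, a difference of 0.96 ± 0.32 (edgeR adjusted p = 0.0453). The plate2 libraries were above the HSC libraries for both genes. Gar1 stood at 0 and 48.5 against 92.9 and 92.9 CPM, 5 transcripts in HSC, with a difference of 2.16 ± 0.63 (edgeR adjusted p = 0.0234). Rrs1 had 3 transcripts in wild type HSC and 69 in plate2, a ratio scaled to depth of 4.08 (exact counting interval 1.34 to 20.3). Utp20, whose start holds an E-box, had 2 and 58 transcripts, a ratio of 5.14 (1.36 to 43.5). The other genes with the motif, Nop2, Ltv1, Pes1, Mybbp1a, Tsr1 and Wdr43, were not called in wild type cells. Rrs1 and Utp20 thus rested on very few HSC transcripts.

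Leaving out 1 library ended 5 of these 6 calls, all but that of Myc. Npm1 was lost without wild type plate2 library 1 (edgeR adjusted p = 0.0560), and Gar1 without that library (0.0739) or without wild type HSC library 1 (0.202). Rrs1 and Utp20 were lost without any 1 of the 4 wild type libraries (edgeR adjusted p 0.0553 to 0.149 and 0.0514 to 0.166). Ddx21 was lost without any 1 of these 4 or of the 2 Mof -/+ plate2 libraries (0.0689 to 0.226). The count of calls was 2 without wild type HSC library 1, 3 without HSC library 2, 1 without plate2 library 1 and 3 without plate2 library 2. It was also 2 with DESeq2 and 2 with at least 2000 transcripts per well. The share of all genes called under these settings is not given here. Whether the loss of calls was general or particular to these genes was thus not tested.

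Members without a call in wild type cells lay on both sides of 0. The highest of these members was Heatr1 (a processome scaffold, 1 transcript in HSC and 28 in plate2, a ratio of 4.97, 0.821 to 203). The 3 lowest were Rrp9 of the U3 particle (-1.04 ± 0.52, edgeR adjusted p = 0.174), the processome protein Wdr43 (-0.58 ± 0.34, 0.241) and Bop1 of the PeBoW complex of 60S assembly (-0.58 ± 0.46, 0.400). Ncl did not pass, at 1391 and 1448 CPM in HSC and 1876 and 1612 in plate2 (0.56 ± 0.25, edgeR adjusted p = 0.129).

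In Mof -/+ cells, 16 of the 31 genes tested were higher in plate2 than in HSC libraries and 0 were lower, where 11.7% of all 6678 genes were higher and 9.99% lower, 21.7% in all (edgeR). The median log2 difference of the 31 genes was 1.07, against 0.05 over all genes, and 30 of 31 were positive. Plate2 libraries in this genotype had more of the nucleolar chaperones (Npm1, Ncl), of the box C/D proteins Fbl, the methyltransferase, and Nop56, of all but 1 of the box H/ACA proteins (Dkc1, Nop10, Gar1) and of 60S factors (Rrs1, Nop16, Wdr12, Gnl3). Ddx21, Mybbp1a, Utp20, Cad of pyrimidine synthesis and Myc complete the 16. All 6 genes called in wild type cells (100%) were among the 16 (37.5% of them).

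Ddx21 stood at 188.4 and 155.01 CPM in Mof -/+ HSC and at 391 and 419 in Mof -/+ plate2 (log2 difference 1.43 ± 0.29, SE; edgeR adjusted p = 0.00183). Mybbp1a, a nucleolar protein that binds Myb (chromosome 11, 72441355 to 72451768) and has an E-box just inside its start, stood at 135.1 and 109.99 against 279 and 266 CPM (1.34 ± 0.30, edgeR adjusted p = 0.00377). For Ddx21 and Mybbp1a both plate2 libraries were above both HSC libraries, and the pairs did not overlap. Of the genes with an E-box, Utp20 and Mybbp1a were called in Mof -/+ cells, and Nop2, Ltv1, Pes1, Tsr1 and Wdr43 were not. Npm1 stood at 1510 and 1236 against 2148 and 2718 (1.03 ± 0.25, edgeR adjusted p = 0.00718), and Ncl at 1374 and 1111 against 1847 and 2235 (0.92 ± 0.25, 0.0132). Fbl, at 221 and 124.996 against 329 and 326, differed by 1.10 ± 0.30 (edgeR adjusted p = 0.0130), and Nop56, at 467 and 225 against 623 and 670, by 1.10 ± 0.32 (0.0190). For Npm1, Ncl, Fbl and Nop56 the HSC libraries differed among themselves but stayed below both plate2 libraries.

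Cad, at 69.6 and 20 CPM in HSC, reached 106.9 and 112.1 in plate2 (1.43 ± 0.44, edgeR adjusted p = 0.0242). Nop10 went from 176.1 and 119.99 to 249 and 332 (1.16 ± 0.32, 0.0135), and Wdr12 of the PeBoW complex from 102.4 and 119.99 to 227 and 195 (1.12 ± 0.31, 0.0140). Gnl3 went from 217 and 164.99 to 292 and 373 (0.99 ± 0.30, 0.0222) and Dkc1 from 233 and 235 to 364 and 375 (0.86 ± 0.30, edgeR adjusted p = 0.0427), the smallest of the 16 differences. Both HSC libraries were below both plate2 libraries for each of these genes. Rrs1 and Utp20 differed by 1.75 ± 0.44 and 1.78 ± 0.51 (edgeR adjusted p = 0.00805 and 0.0173). Gar1 and Nop16 differed by 1.38 ± 0.42 and 1.58 ± 0.50 (0.0231 and 0.0285).

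Members at the other end did not pass the test between the sets in Mof -/+ cells. Neither did the third box C/D protein, Nop58, at 459 and 310 CPM in HSC and 452 and 593 in plate2 (0.64 ± 0.29, edgeR adjusted p = 0.116), nor Nolc1 (0.52 ± 0.32, 0.255). The differences of Bop1 (-0.01 ± 0.37, edgeR adjusted p = 0.991), Rrp9 (0.02 ± 0.47, 0.984) and Pes1, which also belongs to PeBoW (0.32 ± 0.36, 0.571), were within their SE, so within PeBoW only Wdr12 of the 3 proteins was called. With 1 library left out, Myc, Ddx21 and Mybbp1a kept their call in all 8 cases and the other 13 lost it in at least 1. The count was 11 without Mof -/+ HSC library 1, 5 without HSC library 2, 7 without plate2 library 1 and 3 without plate2 library 2. It was 10 with DESeq2. Thinned to 1000 transcripts, 9 of the 32 genes were still tested and 1 was called in Mof -/+ cells and 2 in wild type. For these settings too, the share of all genes called is not given here.

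**Figure D2:**
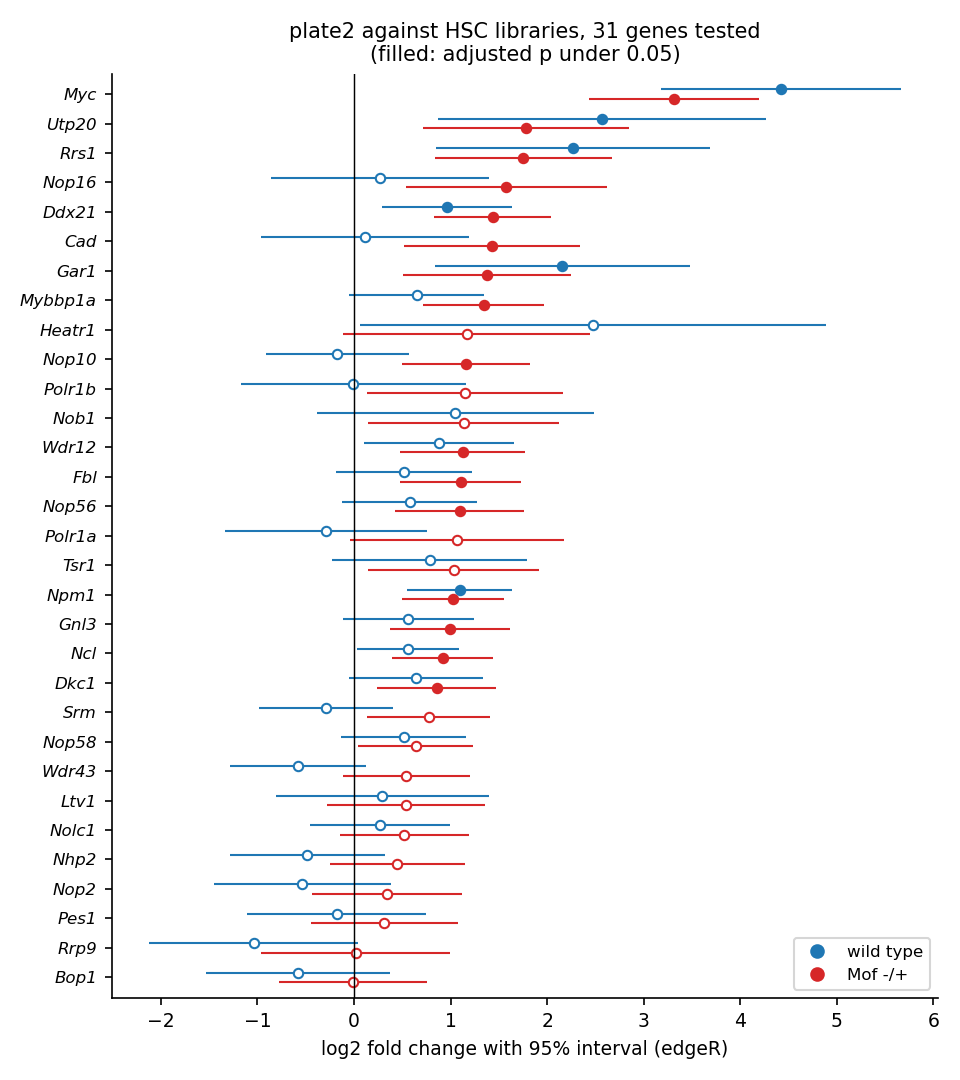
Log2 fold change of plate2 against HSC libraries for the 31 genes tested, in wild type (blue) and Mof -/+ (red), with 95% intervals from edgeR; filled points have an adjusted p under 0.05. Myc is at 4.42 and 3.32, and the other genes range from -1.04 to 2.57 in wild type and from -0.01 to 1.78 in Mof -/+.

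Other cell type markers moved with the plate sets. At equal depth, erythroid progenitor genes stood at 0.760 to 1.19 transcripts per 1000 in HSC libraries and at 2.08 to 3.23 in plate2, with 7 to 9 of the 9 genes detected in each library. Neutrophil progenitor genes stood at 0.0938 to 0.286 in HSC (1 to 3 of its 4 genes detected, Ctsg at 0 in all 4 libraries) and at 0.161 to 1.80 in plate2, lowest in wild type plate2 library 2. Their part in the differences of the ribosome genes was not tested. Fewer cells of a type and less RNA per cell cannot be told apart in these sums over wells.

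The neighbours of these genes gave mixed counts, to be read against 9.39% of all genes higher and 7.95% lower in wild type and 11.7% and 9.99% in Mof -/+. In the Myc network, 1 of 7 tested genes changed, in both genotypes: Mycn, a paralog of Myc, was lower in plate2. Mycn stood at 120.9 and 233 CPM in wild type HSC and 44.4 and 47.6 in wild type plate2 (log2 difference -1.69 ± 0.41, edgeR adjusted p = 0.00809). In Mof -/+ it stood at 122.8 and 164.99 against 39.9 and 50.1 (-1.46 ± 0.36, edgeR adjusted p = 0.00783). In all 4 HSC libraries Mycn was thus above Myc, and in all 4 plate2 libraries Myc was above Mycn.

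Among further small subunit processome and 40S factors, 2 of 34 were higher and 0 lower in wild type (median 0.46), and 7 and 0 in Mof -/+ (median 0.89). Bms1 and Nop14 were the 2 in wild type (2.41 ± 0.75 and 1.83 ± 0.60, edgeR adjusted p = 0.0312 and 0.0390). Among further 60S factors, 3 of 39 were higher and 2 lower in wild type (median 0.34), and 9 and 0 in Mof -/+ (median 0.57). Ftsj3, a ribosomal RNA methyltransferase, and the helicase Ddx27 were among the 9 (2.08 ± 0.42 and 1.62 ± 0.37, edgeR adjusted p = 0.00177 and 0.00392). For RNA polymerase I and its factors, 1 of 15 was higher and 3 lower in wild type, and 4 and 0 in Mof -/+. Taf1d, of the polymerase I initiation complex, was the 1 (2.96 ± 0.63, edgeR adjusted p = 0.00309), while the subunits Polr1c and Polr1e fell in wild type (-1.41 ± 0.37 and -2.16 ± 0.58, 0.0139 and 0.0144). Of exosome and trimming genes, 0 of 11 were called in wild type and 3, all higher, in Mof -/+. The 7 tested snoRNP assembly genes held no call, with medians of 0.17 and 0.35. Of 2 tested rows of non-coding genes that overlap ribosomal RNA sequence, Gm42418 and Gm26917, 2 were higher in wild type and 1 in Mof -/+ cells.

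Among Myc-induced metabolic and translation genes, 4 of 18 were higher and 3 lower in wild type (median 0.71), and 9 and 0 in Mof -/+ (median 0.93). Over all genes, 9.39% were higher and 7.95% lower in wild type, and 11.7% and 9.99% in Mof -/+. Eif4a1, the helicase of translation initiation, stood at 80.6 and 38.8 CPM in wild type HSC and 470 and 393 in wild type plate2 (3.12 ± 0.42, edgeR adjusted p = 5.16e-05). The purine enzyme Atic differed by 3.56 ± 0.69 and the chaperonin gene Hspe1 by -1.16 ± 0.28 (edgeR adjusted p = 0.00165 and 0.00817).

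No genotype difference passed the test for any of the 31 genes. In HSC libraries, 0 members were called by edgeR and 0 by DESeq2, where 0.015% of all 6678 genes were called. At an unadjusted p under 0.05 (edgeR), 2 members passed, 6.45% of them, against 10.7% of all genes. The median log2 difference, Mof -/+ against wild type, was -0.26 for the 31 genes and 0.03 for all genes, with 11 of 31 positive. It turned to 0.02 without Mof -/+ HSC library 2 and to 0.14, over 9 genes, in thinned wells. Polr1a, the largest subunit of RNA polymerase I, had the lowest value: the wild type libraries stood at 40.3 and 116.5 CPM and the Mof -/+ libraries at 32.8 and 15 (-1.74 ± 0.63, edgeR adjusted p = 0.354). Nop16 (-1.20 ± 0.69) and Rrp9 (-0.97 ± 0.56) followed, with edgeR adjusted p of 0.543 and 0.544. The highest were Heatr1 (1.71 ± 1.34), Gar1 (0.98 ± 0.75) and Utp20 (0.93 ± 1.05), each with at most 5 transcripts in wild type HSC. Myc, with 2 and 8 transcripts, differed by 0.77 ± 0.96 (edgeR adjusted p = 0.839).

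In plate2 libraries no member passed either, and 28 of 31 had a positive difference, with a median of 0.27 against 0.00 for all genes, where 90.3% of members and 50.1% of all genes were positive. By edgeR or DESeq2, 0 members were called, against 0.539% of all genes. At an unadjusted p under 0.05, 1 member passed (edgeR), 3.23% of them against 5.21% of all genes: Nop10, at 154.03 and 152.5 CPM in wild type and 249 and 332 in Mof -/+ (0.79 ± 0.29, edgeR adjusted p = 0.710). Cad (70.7 and 61.9 against 106.9 and 112.1, 0.57 ± 0.35) and Nhp2, the remaining box H/ACA protein (98.5 and 95.3 against 132.4 and 162.3, 0.47 ± 0.31), followed, both with an edgeR adjusted p of 0.997. For these 3 genes both Mof -/+ libraries were above both wild type libraries. The 3 negative members were Polr1a (-0.39 ± 0.38), Tsr1 of 40S maturation (-0.37 ± 0.32) and Myc (-0.33 ± 0.27, 95% interval -0.89 to 0.22), with an edgeR adjusted p of 0.997 each.

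Several marker lists differed in level between the genotypes in the plate2 libraries. Mature neutrophil genes stood at 8.15 and 6.74 transcripts per 1000 in wild type (8 of 8 genes detected) and at 0.201 and 0.134 in Mof -/+ (5 and 4 detected, Lcn2 at 0 in both). Erythroid progenitor genes, 9 of 9 detected in each library, were lower in wild type (2.08 and 2.31) than in Mof -/+ (2.96 and 3.23), as were megakaryocyte genes (0.0782 and 0.104 against 0.130 and 0.130, 4 or 5 of 5 detected). Neutrophil progenitor genes, 4 of 4 detected in each library, stood at 1.60 and 0.161 in wild type and at 1.80 and 1.78 in Mof -/+. Stem cell genes overlapped, at 0.582 and 0.712 against 0.595 and 0.673. By edgeR, 6 of 8 mature neutrophil genes were lower in Mof -/+ and 1 of 2 tested megakaryocyte genes was higher. Of the 9 erythroid and 4 neutrophil progenitor genes, 0 were called. Over all genes, 0.524% were lower and 0.015% higher. The part of these lists in the genotype values was not tested, beyond leaving out wells rich in mature neutrophil transcripts. Without the wells of 10 or more such transcripts, 6 in wild type plate2 and 1 in Mof -/+ plate2, the median of the 31 genes was 0.27. In thinned wells, with 9 members tested, it was 0.11. Leaving out Mof -/+ plate2 library 2, the highest of the 4, the median was 0.13, and without wild type plate2 library 2 it was 0.18.

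The difference between the genotype effects of the 2 plate sets was not called for any member by edgeR or DESeq2, and 3 of 31 had an unadjusted p under 0.05 (edgeR), 9.68% of members against 9.22% of all genes. These were Nop10 (1.34 ± 0.48, edgeR adjusted p = 0.435), Wdr43 (1.12 ± 0.46, 0.497) and Srm, spermidine synthase (1.06 ± 0.45, 0.502). Over all genes 0% were called after adjustment. The median of the 31 values was 0.47, against -0.07 over all genes, and 25 of 31 were positive (80.6%, against 46.7% of all genes). The 3 highest values were Polr1a (1.36 ± 0.74), Nop10 and Cad (1.31 ± 0.70), and the lowest were Heatr1 (-1.31 ± 1.46), Myc (-1.10 ± 0.99) and Utp20 (-0.79 ± 1.12), genes with 1 or 2 transcripts in wild type HSC. So the larger count of calls in Mof -/+ than in wild type cells, plate2 against HSC, was not shown to be a difference between genotypes for any gene. The HSC libraries of Mof -/+ were also deeper than those of wild type. With both sets in 1 model, 0 members were called by edgeR or DESeq2, against 0.12% of all genes, and the median was 0.11. At an unadjusted p under 0.05, 1 member passed (edgeR), 3.23% of them against 5.87% of all genes: Polr1a, at -0.77 ± 0.36 (edgeR adjusted p = 0.840). Tsr1 (-0.42 ± 0.29) and Rrp9 (-0.29 ± 0.36) came next, and Heatr1 (0.56 ± 0.46), Nob1 (0.43 ± 0.35) and Gar1 (0.34 ± 0.32) had the highest values.

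**Figure D3:**
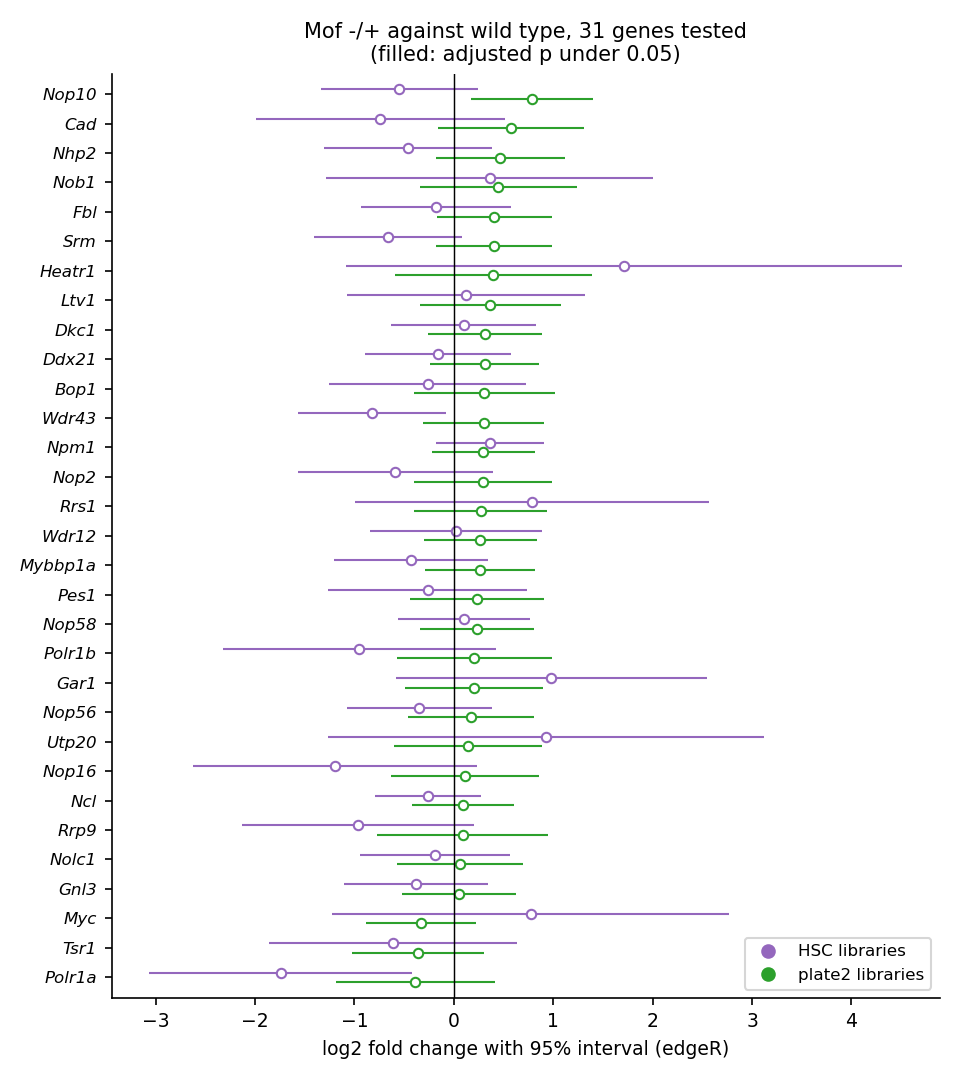
Log2 fold change of Mof -/+ against wild type for the 31 genes tested, in HSC (purple) and plate2 libraries (green), with 95% intervals from edgeR; all points are open because no adjusted p is under 0.05. In plate2, 28 of 31 points lie above 0, with Nop10 highest at 0.79, and in HSC 11 of 31 do.

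Within plate2, whether members differed by barcode position depended on how positions were counted. In runs of 12 consecutive barcodes, 0 of 18 tested members differed by edgeR, 0 by DESeq2 and 0 at an unadjusted p under 0.05, where 0.193% of genes did. Counting positions instead as the place of a barcode within each 8, a layout chosen after marker genes were seen to follow it, 9 of 19 tested members differed (edgeR F test), where 29.1% of all 2769 genes did. They were Myc, Srm, Nop10, Ddx21, Cad, Wdr43, Nolc1, Ncl and Mybbp1a. No label says which cells a position held, so positions are named by number, and their marker levels are given as the mean over the 4 plate2 libraries per 1000 transcripts.

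On the mean of the 4 libraries, the 32 genes were highest at positions 3 and 4, where erythroid progenitor genes were highest too. The sum of the 32 genes was 9.11 ± 1.32 at position 1, 7.02 ± 0.63 at position 2, 9.88 ± 3.96 at position 3, 10.6 ± 2.80 at position 4, 7.55 ± 2.31 at position 5, 5.11 ± 1.35 at position 6, 5.53 ± 0.88 at position 7 and 3.47 ± 3.76 at position 8 (per 1000 transcripts, SD, 4 libraries). Positions 3 and 4 were the highest in each Mof -/+ library but not in either wild type library. Wild type library 1 stood at 13.2 and 7.41 at positions 3 and 4, with 10.8 at position 1. Wild type library 2 stood at 4.24 and 9.24 there, with 9.63 at position 5. Erythroid progenitor genes stood at 4.66 and 5.69 at positions 3 and 4 and at 0.790 and 0.835 at positions 6 and 7. They stood at 2.19 at position 1, 1.996 at position 2 and 3.58 at position 5. At position 8, where the 32 genes were lowest, they stood at 3.35 (0.442 to 6.38 over the libraries). Erythroid progenitor genes and the sum thus did not run in parallel over all positions. Stem cell genes stood at 1.72 and 1.49 at positions 6 and 7 and at 0.273 or less elsewhere. Position 1 had the neutrophil progenitor genes (7.96, and 0.0215 in wild type library 2). Position 8 had the mature neutrophil genes (32.7, from 1.03 to 73.1 over the libraries) and the haemoglobin genes (4.43, from 0.759 to 10.3). Over all positions, mature neutrophil genes stood at 8.15 and 6.74 in wild type libraries and at 0.201 and 0.134 in Mof -/+ ones. Their mean at position 8 thus rested mainly on wild type wells. The low stretch of the ribosome genes thus covered position 8 and positions 6 and 7, where stem cell genes were highest, with positions 5 and 2 between. The spread over libraries at positions 3, 4 and 8 was as wide as most gaps between positions. Depth also differed by position: the median well held 22055, 12396, 17260, 11680, 8727, 9109, 9192 and 3700 transcripts at positions 1 to 8. The part of depth in these sums was not tested.

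Myc had its highest mean at position 2. It stood there at 265, 275, 301 and 237 CPM, averaged over wells, in the 4 libraries (wild type 1 and 2, then Mof -/+ 1 and 2), against 110.9, 64.6, 121.3 and 222 at position 1 and 87.9, 79.4, 129.7 and 71.5 at position 7. Each value at position 2 was above each value at positions 1 and 7, but other positions overlapped with it. Position 5 held 0, 382, 297 and 190.6 CPM in the same order of libraries, and single libraries reached 262 at position 3, 237.5 at position 4 and 256 at position 6. Against the mean of the other positions, Myc was 2.62-fold higher at position 2 (log2 1.39 ± 0.30, edgeR adjusted p = 0.00268), where 2.71% of genes were higher and 0.144% lower, and no other member was called there. At position 8, 2 Myc transcripts were found in 17 wells, both in Mof -/+ library 2, and 414 in the wells of the other positions, a ratio scaled to depth of 0.0668 (exact counting interval 0.00807 to 0.243). Myc's call over positions held in all 10 alternatives that tested it (edgeR or DESeq2 adjusted p up to 0.0392). Mycn also differed by position (edgeR adjusted p = 2.53e-08).

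Other members were called at single positions. At position 1, 1 member was higher (6.83% of genes were, and 1.81% lower): Srm, 1.82-fold (log2 0.86 ± 0.29, edgeR adjusted p = 0.0491). Position 1 was fitted without wild type library 2, which had 2 wells there. In that library the mean of Srm over wells was lower at position 1 than at any other position. The call of Srm thus leaves out a library in which Srm was not raised at position 1. At position 7, 1 was lower (1.84% of genes were, and 8.56% higher): Cad, with 6 transcripts in 31 wells (log2 -1.95 ± 0.60, edgeR adjusted p = 0.0293). At position 8, 7 of 19 were lower and 0 higher, where 10.8% of genes were lower and 9.43% higher: Myc, Wdr43, Wdr12, Mybbp1a, Gnl3, Ncl and Nop10. Wdr43 fell most after Myc, to 5 transcripts in 17 wells (log2 -2.69 ± 0.60, edgeR adjusted p = 0.00103), and Ncl fell by 0.96 ± 0.31 on the log2 scale (edgeR adjusted p = 0.0213). At positions 3 and 4, where the mean sum was highest, 0 members were called by edgeR against the other positions, while 6 and 10 of 19 had an unadjusted p under 0.05 (31.6% and 52.6%), against 11.5% and 13.9% of all genes. After adjustment, 0.975% and 1.3% of all genes were higher, and 0.181% and 0.506% lower. Positions 5 and 6 had 0 called by edgeR, and 2 and 5 of 19 at an unadjusted p under 0.05, against 6.46% and 27.1% of all genes. After adjustment, 0.0361% and 10.7% of all genes were higher and 0% and 2.89% lower. Position 5 was fitted without wild type library 1 and Mof -/+ library 1, which had 2 wells each there.

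Position 8 was not alike in the 4 libraries. Wild type libraries had a sum of the 32 genes of 2.16 and 1.61 there (6 and 5 wells), Mof -/+ library 1 had 1.03 (3 wells), and 9.07 was found in Mof -/+ library 2 (3 wells). Without position 8, 7 members still differed by position, where 23.4% of genes did, and without the wells rich in neutrophil transcripts 6 did, where 26.5% of genes did. The count was 2 of 18 tested without wild type plate2 library 1 (16.2% of genes), 4 of 18 without Mof -/+ library 1 (22.5%), 7 of 21 without Mof -/+ library 2 (20.6%) and 16 of 30 without wild type library 2 (25.2%), which had the fewest wells.

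By genotype, the sum at position 4 was 7.41 and 9.24 in wild type and 12.2 and 13.6 in Mof -/+ libraries, from 8 and 3 wells against 6 and 8. At position 7 it was 5.12 and 4.82 against 6.81 and 5.36. At positions 1, 2, 3, 5, 6 and 8 the 2 genotypes overlapped, with 3 or fewer wells in some libraries. With the 8 positions weighted equally, Mof -/+ plate2 libraries were 1.42 transcripts per 1000 above wild type ones, against 1.71 with wells weighted equally. No test was made of these sums.

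**Figure D4:**
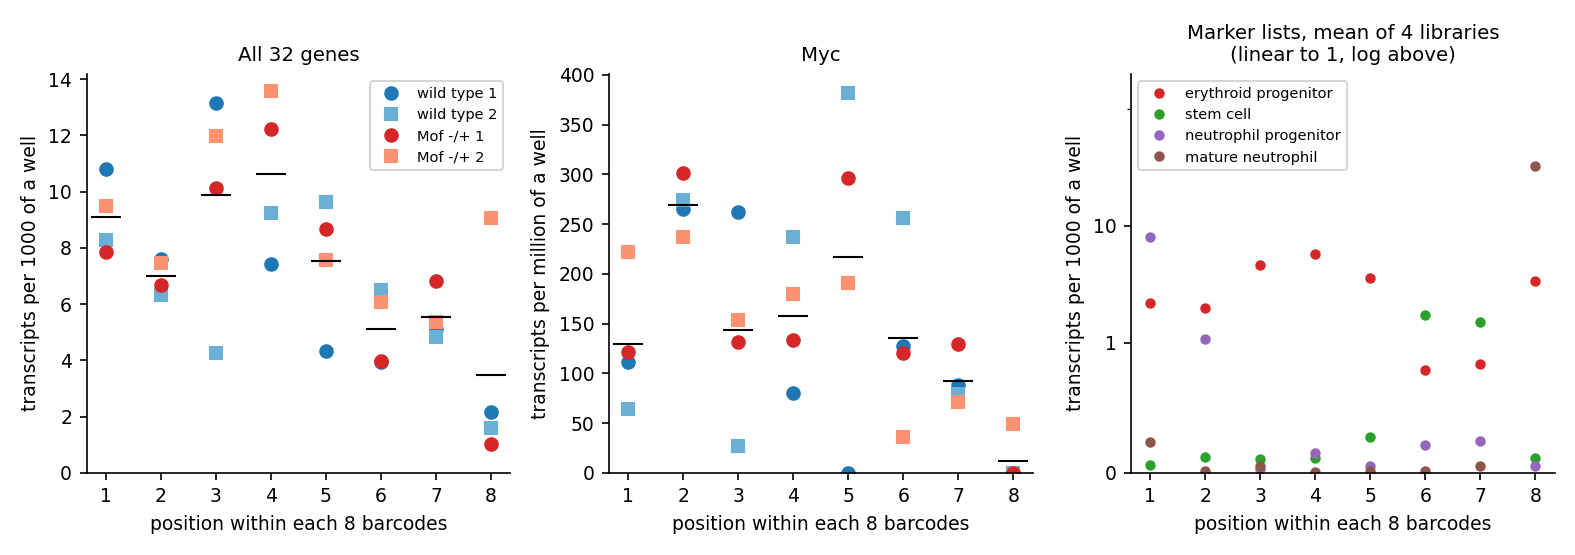
The sum of the 32 genes (left, transcripts per 1000 of a well) and Myc (middle, CPM of a well) at each position within 8 barcodes, 1 point per plate2 library and a bar for their mean, and marker lists as means of the 4 libraries (right, linear to 1 and logarithmic above). Myc lies between 237 and 301 at position 2 in all 4 libraries, and the sum of the 32 genes falls to 1.03 to 2.16 at position 8 in 3 of them.

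Across single wells, the 32 genes were higher in wells with more of the other assembly factors and in deeper wells. Over the plate2 wells (54, 41, 45 and 46 in the 4 libraries), the Spearman correlation of their sum was 0.89 with the sum of the further small subunit and 60S factors, 0.58 with erythroid progenitor genes, -0.20 with stem cell genes and 0.49 with the transcripts of the well. Over the 231 HSC wells these were 0.28, 0.13, -0.27 and 0.26. Wells of a library share their plate and chemistry, and both axes share the well's total, so these are descriptions. By depth, the shallowest 62 plate2 wells (1015 to 7023 transcripts) averaged 5.25 per 1000, the next 62 averaged 6.34 and the deepest 62 (14085 to 54150 transcripts) 10.1. In HSC wells, split into 3 sets of 77 by depth, the means were 4.63, 4.93 and 5.89. The ribosome genes thus took a larger share of the transcripts in deeper wells, also on this scale.

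**Figure D5:**
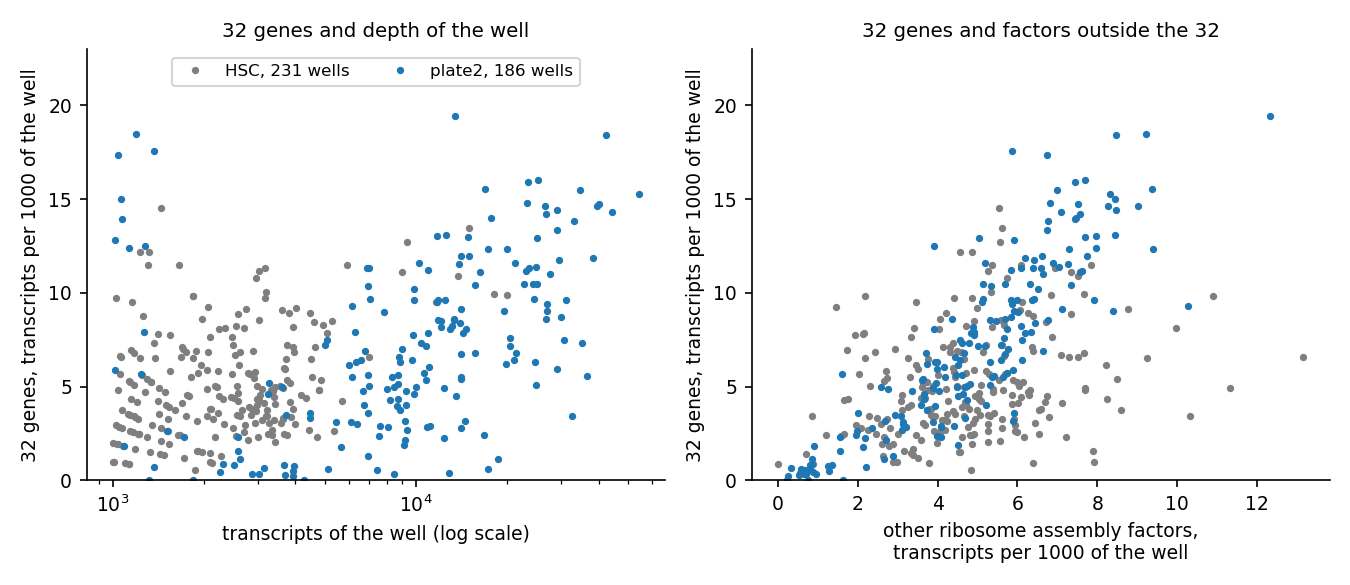
Each point is a kept well, HSC in grey and plate2 in blue: transcripts of the 32 genes per 1000 of the well against the depth of the well (left, log axis) and against further ribosome assembly factors (right). In plate2 the right panel follows a line (Spearman 0.89), and HSC wells scatter around 5 per 1000.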

How the data were processed

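Single sorted mouse bone marrow cells were measured by CEL-Seq2, per the labels' protocols. The deposited values are expected counts, estimated transcripts per gene and barcode; each corresponds to a whole number of distinct molecular identifiers (largest deviation 3.6e-12). Per the submitters' processing notes, BWA 0.6.2-r126 and mm10 are named for the upstream steps. How reads were counted, and on which annotation, is not given in the sources used here. All 70 spike-in rows were left out. The 8 files held 1536 barcodes; in each library the run of 96 barcodes with most transcripts was used, and 19 barcodes of at least 1000 transcripts among the other 96 were left out. Doublets were not called. All 8 libraries list the same barcode numbers.

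Values were rounded to whole numbers, summed over kept wells per library and tested with edgeR 4.0.16 (TMM, filterByExpr, quasi-likelihood, 4 groups sharing 1 spread, two-sided) in R 4.3.3, with Benjamini-Hochberg adjustment over all genes tested. CPM are of these sums without TMM factors; intervals are exact and 95%. Fitted fold changes of genes with few counts depend on edgeR's prior count. Positions were summed per library and tested with library as a block, for sums of at least 3 wells. DESeq2 1.42.0, RLE scaling, no filter, 2000 transcripts, all barcodes, thinned wells and leaving out each library were the alternatives, and positions within 8 barcodes, position 8 and neutrophil-rich wells were added after seeing the data. The procedure was tested on simulated data. The 2 libraries of each group differed by more than counting error (chi-square per degree of freedom 2.23 to 4.48). Members, lists and tests were chosen with earlier results of these data known. Named members were Myc, the 8 most abundant, all called, and the 3 largest rises and falls per comparison; of further lists, up to 3 genes of smallest p.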

Additional observations from a re-analysis of the deposited data

Results flagged for a closer look

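At position 8 of the plate2 libraries, Mof -/+ library 2 stood apart from the other 3, with 9.07 transcripts of the 32 genes per 1000 and 49.5 CPM of Myc. In both cases its gap to the nearest library was most of the range of the 4. Of 16 sets of 4 libraries examined in this way (Myc and the sum, 8 positions each), 2 were flagged, where chance flags about 1 in 20. That rate does not cover Myc here, which was at 0 in the other 3 libraries. Myc is also part of the sum, so the 2 flags are not separate. Mof -/+ library 2 had 3 wells at this position, and its Myc value rests on 2 transcripts.

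The 96 barcodes left out of each library also held transcripts of these genes, 1297 over the 8 libraries. The 19 such barcodes with at least 1000 transcripts averaged 12.9 transcripts of the 32 genes per 1000, from 4.75 to 22, and 18 of them were in plate2 libraries. Counting them raised the wild type plate2 libraries to 7.86 and 6.72 per 1000 and Mof -/+ plate2 library 1 to 7.59, with library 2 at 8.85, so wild type library 1 then lay above Mof -/+ library 1.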

How the results depend on the processing

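Genotype calls of members stayed at 0 under every alternative that was run. The numbers 1 and 2 of the HSC libraries did not pair (correlation of the replicate differences -0.13 over 4851 genes); with the replicate block, 0 of 19 members were called and 5 genes in all, and with crossed numbers 0 and 50. No paired analysis of the plate2 libraries was possible because their titles carry no shared replicate numbers. Plate2 against HSC, the count of 6 in wild type was 2 with DESeq2, 2 with at least 2000 transcripts per well and 2 in thinned wells, and ranged from 1 to 6 with 1 library left out. The count of 16 in Mof -/+ was 10 with DESeq2 and 1 in thinned wells, and ranged from 3 to 16 with 1 library left out. For the counts of 6 and 16, the share of all genes called under each alternative is not given here. The count of 9 by position was 0 of 2 tested in thinned wells and 2 to 16 with 1 library left out. Thinned wells, with 9 members tested, gave medians of 0.14 for genotype in HSC, 0.11 for genotype in plate2 (0.27 as reported), -0.076 for the difference of genotype effects and 0.76 for plate2 against HSC in Mof -/+. The cause was not tested, beyond the fewer genes that thinning leaves. Without wild type plate2 library 2, the genotype median over both sets was -0.00.

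The sum per 1000 differed between genotypes in HSC by -1.05 with at least 2000 transcripts per well (0.11 as reported), by -0.22 without Npm1 and Ncl and by -0.38 with wells weighted by transcripts. Plate2 minus HSC in wild type was -0.30 with that minimum and 0.41 without Npm1 and Ncl (1.29). Plate2 minus HSC in Mof -/+ was 4.11 with wells weighted by transcripts and 1.64 without Npm1 and Ncl (2.89). Among members with no call, signs turned in 19 cases. In Mof -/+, plate2 against HSC, Bop1 was 0.0036 with RLE, 0.036 with DESeq2, 0.026 without the filter, 0.011 with 2000 transcripts, 0.0018 with all barcodes and -0.36 to 0.48 with 1 library left out. Rrp9 was -0.093 with 2000 transcripts, -0.058 with all barcodes, -0.12 without position 8 and -0.38 to 0.33 with 1 library left out. For genotype, Ncl in plate2 was -0.029 in thinned wells and -0.050 to 0.23 with 1 library left out, and Rrp9 over both sets ranged from -0.60 to 0.059, the latter without wild type HSC library 2.

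Depth limits the rarest members most: Rrp12 with 53 transcripts was not tested, and Myc, Rrs1 and Utp20 had 2 or 3 transcripts in wild type HSC.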
